A study of Mus musculus with 64 samples.

Results

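CD64 is the high-affinity Fc receptor for immunoglobulin G, encoded in the mouse by Fcgr1 (chr3:96282909-96293969 in GRCm38.p6, RefSeq annotation). It was measured as 1 of 11 surface proteins with sequence-tagged antibodies on single immune cells of the mouse colon, and its antibody row was followed here in the 9 such libraries of SCID mice, of 64 samples in the series. The other 55 samples, surface protein libraries of Rag2 KO mice among them, were not analysed here. The treated group was 1 library from week 7 of SCID mice that had received CD45RBhi T cells and, from day 10, anti-IL-12p40, which binds a chain that the cytokines IL-12 and IL-23 have in common. The untreated groups were 1 library from each of weeks 0 to 7 of SCID mice, all labelled as CD45RBhi transfer, week 0 included, without anti-IL-12p40. SCID mice lack T and B lymphocytes of their own, and transferred CD45RBhi T cells, a naive fraction, cause colitis in such hosts. Each library pooled the colons of 3 animals, lamina propria cells were sorted as EpCAM- and CD45+, and about 16000 cells were loaded.

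Fc receptors link antibodies to phagocytes. CD64 binds monomeric immunoglobulin G through its Fc end and, when antibody-coated material crosslinks it, starts uptake and activation. In the intestine it is used, with CD11b and CD11c, to mark macrophages and cells maturing from monocytes, which lose Ly-6C as they mature, whereas dendritic cells, many of them carrying the integrin CD103, have little of it.

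Across the libraries, 130442 barcodes passed the count filters and carried 3520810 CD64 counts. The median number of counts of all antibodies per cell lay between 576.5 and 1566. CD64 took 0.402% of these counts in the treated library and between 0.385% (week 7) and 4.30% (week 4) in the untreated ones. Each level below is either a count or a centred log ratio, for which 1 was added to each count, the natural log was taken and the cell's mean over its 11 antibodies was subtracted. A cell was CD64+ above a centred log ratio of 0.11, where the 2 components of a mixture model fitted to all libraries were equally probable. The components were well apart (Ashman's D, the distance in units of their spread, was 3.27), whereas those of Ly-6C were not (1.82, below the usual limit of 2). Intervals are exact Clopper-Pearson 95% intervals and cover counting error only. Cells are not replicates, and each week has 1 pool, so how far pools taken in one week differ cannot be measured. Library pairs shared 30 to 110 barcodes, and doublets were not called.

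CD64 was found where the label places it in the untreated mice. Of the CD64+ cells of each untreated library, between 84.3% (week 5) and 95.4% (week 6) were CD3- cells with CD11b or CD11c, the integrin chains of myeloid cells, and in each untreated library most were CD3- CD11b+ Ly-6G- cells (77.3% to 90.6%). In the treated library 42.9% of the 364 CD64+ cells were CD3- with CD11b or CD11c, against 90.7% of the 182 CD64+ cells of the untreated week 7 library. The treated library's other CD64+ cells were CD3+ (26.6%) or CD3- without both integrins (30.5%), against 6.59% and 2.75% in the untreated week 7 library. The CD3- cells without both integrins were 2227 CD90.2+ and 350 CD90.2- cells in the treated library, against 312 and 67 in the untreated one. Of these, 3.41% and 10% were CD64+ in the treated library, and 0% and 7.46% in the untreated one. Over all 8 untreated libraries these shares spanned 0% to 3.07% of the CD90.2+ and 1.95% to 10.8% of the CD90.2- cells. CD3+CD4+ cells, which should lack the receptor, gave the background. In the libraries with at least 50 such cells, 0.868% of them were CD64+ in the treated library and between 0.0958% and 7.65% in the untreated ones, at median CD64 counts of 2 to 9 and median totals of 839.5 to 1915 counts over all these libraries. The CD3- CD11b+ Ly-6G- cells had median totals of 915 to 2316 counts.

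The first question was how CD64 on myeloid cells changed with time after transfer. Ly-6G, a neutrophil protein, was used to leave neutrophils out of the CD11b+ cells. The median CD64 count of CD3- CD11b+ Ly-6G- cells was 87, 43, 38, 118, 105, 91, 50 and 91 in the libraries of weeks 0 to 7, in that order. Their CD64+ share was 67.8%, 72.1%, 80.7%, 80.5%, 90.7%, 71.6%, 59.4% and 67.5%. Week 4 was highest (interval 89.9 to 91.5) and week 6 lowest (57.2 to 61.6). At week 6, 55.0% of these cells lay within 0.5 of the threshold, against 10.5% to 26.4% in the other untreated libraries, so that week's share depends most on where the threshold is set. The week 7 share rests on 237 cells, against 1478 to 6458 in the other untreated libraries.

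CD3- CD11c+ cells, which hold both macrophages and dendritic cells, had a wider course. Their median CD64 count was 5, 3, 29, 94, 80, 17, 32 and 5 in weeks 0 to 7, and 26.2%, 29.7%, 59.5%, 60.6%, 70.9%, 37.5%, 42.9% and 26.2% of them were CD64+. The share was again highest at week 4, and weeks 0 and 7 were both at the low end. CD11b+ cells made up 43.7% of the CD11c+ cells at week 0, 76.1% at week 4 and 42.3% at week 7. The CD64+ share within the CD11b+ part was 57.2% at week 0, 89.2% at week 4 and 61.0% at week 7, and within the CD11b- part 2.11%, 12.4% and 0.621%. Both the makeup of the CD11c+ cells and the CD64+ share within each part were therefore higher at week 4 than at either end.

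**Figure D1:**
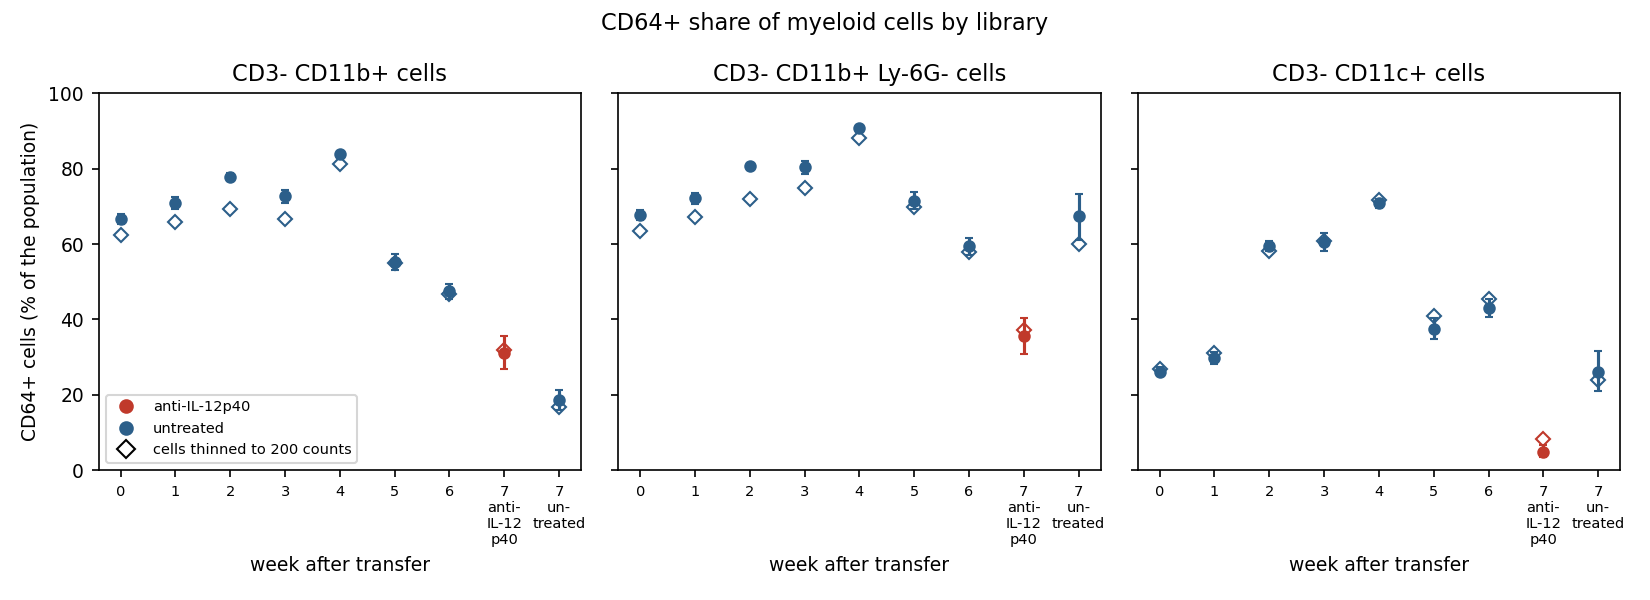
CD64+ cells as a percentage of 3 CD3- populations (y axis) by week and treatment (x axis). Filled points are libraries with exact 95% intervals for counting error. Open diamonds are the shares after each cell was thinned to 200 counts and gated anew. Untreated shares peak at week 4, at 90.7% in CD11b+ Ly-6G- cells and 70.9% in CD11c+ cells, and the treated library is lowest in both, at 35.5% and 4.90%.

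No steady trend with week was detected for CD64. Over the 8 untreated libraries the mean CD64 centred log ratio of CD3- CD11b+ Ly-6G- cells had Spearman's rho = -0.12 with week (exact permutation p = 0.793) and Pearson's r = -0.06 (exact permutation p = 0.899). In CD3- CD11c+ cells rho was -0.05 (exact permutation p = 0.935) and r was 0.02 (exact permutation p = 0.954). In all CD3- CD11b+ cells, neutrophils included, rho was -0.43 (exact permutation p = 0.299) and r was -0.58 (exact permutation p = 0.121). Without weeks 0 and 7 rho was -0.20 in CD11b+ Ly-6G- cells, 0.09 in CD11c+ cells and -0.49 in all CD11b+ cells, and r was -0.11, 0.22 and -0.40.

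Adjusted by Benjamini-Hochberg over the 26 antibody trends tested in these populations, the exact p for rho was 0.937, 0.977 and 0.486 for CD64 in CD11b+ Ly-6G-, CD11c+ and all CD11b+ cells. None of the 26 trends passed at 0.05 by rho (0%), and 5 had an unadjusted exact permutation p below 0.05, none of them for CD64. By Pearson's r, 2 passed, both in all CD11b+ cells. Ly-6G was higher in later weeks (r = 0.88, exact permutation p adjusted 0.0484) and KLRG1, an inhibitory receptor found on lymphocytes, was lower (r = -0.91, exact permutation p adjusted 0.0484). KLRG1 counts were near the floor. Cells of the CD11b+ Ly-6G- gate with high or low CD64 counts had median KLRG1 counts of 0 to 7 in the untreated libraries.

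The CD64+ share of all CD11b+ cells was lowest at week 7, where most of them were Ly-6G+. Of CD3- CD11b+ cells, 66.6%, 70.9%, 77.8%, 72.8%, 83.9%, 55.3%, 47.5% and 18.6% were CD64+ in weeks 0 to 7, while 2.57%, 5.40%, 7.21%, 18.9%, 18.0%, 26.1%, 21.4% and 73.1% were Ly-6G+. Leaving the Ly-6G+ cells out gave 67.5% in place of 18.6% at week 7. At weeks 5 and 6 the CD64+ share was also lower than at week 4 among the Ly-6G- cells, at 71.6% and 59.4% against 90.7%. The Ly-6G+ cells themselves were CD64+ in 18.4%, 48.6%, 40.8%, 39.8%, 53.2%, 9.37%, 3.48% and 0.620% of cells in weeks 0 to 7. The weeks 1 to 4 stood apart from the later ones, at median totals of 1404 to 4575 counts in those weeks and 1885 to 3656 in weeks 5 to 7. Neutrophils carry little CD64 unless activated, and whether shared droplets had a part in these shares was not tested.

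**Figure D2:**
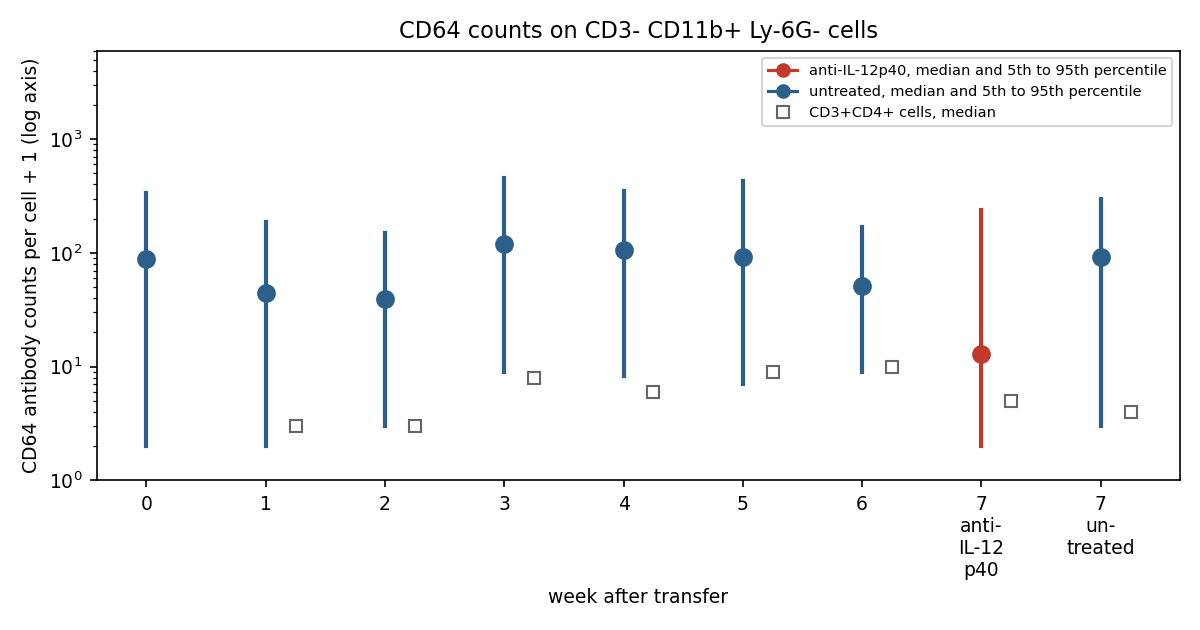
CD64 antibody counts per cell plus 1 (y axis, log scale) on CD3- CD11b+ Ly-6G- cells by week and treatment (x axis); points are medians, bars the 5th to 95th percentile of cells, and open squares the median of CD3+CD4+ cells where a library has at least 50. Untreated medians lie between 38 and 118 counts, and the treated median is 12.

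The second question was what anti-IL-12p40 treatment did to CD64 at week 7. With 1 library per group there is no replicate check and no test. Among CD3- CD11b+ Ly-6G- cells the median CD64 count was 12 in the treated library and 91 in the untreated week 7 library. The mean centred log ratio was -0.21 in the treated and 0.33 in the untreated library, a difference of -0.54. The CD64+ share was 35.5% (30.9 to 40.4) of 408 cells in treated and 67.5% (61.1 to 73.4) of 237 cells in untreated mice, a ratio of 0.526. A share was called different in size when the ratio was at least 1.5 in either direction, the intervals were apart and the value in treated mice fell outside untreated weeks 5 to 7, which span 59.4% to 71.6% here. By that rule the share was lower in the treated library. After thinning each cell to 200 counts and fitting the thresholds anew it was 37.2% in the treated and 60.0% in the untreated library.

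Among CD3- CD11c+ cells the ratio of the shares was further from 1. In the treated library 40 of 817 cells (4.90%, 3.52 to 6.61) were CD64+, against 73 of 279 (26.2%, 21.1 to 31.7) in the untreated week 7 library, a ratio of 0.187. The untreated weeks 5 to 7 spanned 26.2% to 42.9%, and the size rule was met. The medians hid this, since the median CD64 count was 4 in the treated and 5 in the untreated library, both at the level of CD3+CD4+ cells. The 95th percentile was 24.2 counts in the treated and 246.3 counts in the untreated library. Thinned to 200 counts, the shares were 8.31% in treated and 24.0% in untreated mice, and still met the rule.

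The CD11c+ difference had 2 parts. CD11b+ cells were 21.2% of the CD11c+ cells in the treated library and 42.3% in the untreated week 7 library. Within these CD11b+ cells, 30 of 173 (17.3%, 12.02 to 23.8) were CD64+ in the treated library, against 72 of 118 (61.0%, 51.6 to 69.9) in the untreated one. Within the CD11b- cells, 10 of 644 (1.55%, 0.747 to 2.84) were CD64+ in the treated and 1 of 161 (0.621%, 0.0157 to 3.41) in the untreated library, with overlapping intervals.

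Within the CD11b+ Ly-6G- cells the subsets did not all go the same way. Of CD11c+CD103- cells, 22.5% (15.4 to 31.0) of 120 cells were CD64+ in the treated library and 74.0% (64.0 to 82.4) of 96 cells in the untreated week 7 library, at median CD64 counts of 9 and 101.5. Of CD11c-Ly-6C+ cells, the phenotype of monocytes, 48.1% (34.0 to 62.4) of 52 cells were CD64+ in treated and 90.24% (81.7 to 95.7) of 82 cells in untreated mice. Of CD11c-Ly-6C- cells, 46.7% (39.5 to 53.9) of 195 cells were CD64+ in the treated library and 28.3% (16.8 to 42.3) of 53 cells in the untreated one. The last pair is in the opposite direction, and its intervals overlap.

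Thinned to 200 counts, the shares were 28.4% in treated and 66.7% in untreated mice for CD11c+CD103- cells, 45.9% and 68.3% for CD11c-Ly-6C+ cells, and 44.4% and 11.1% for CD11c-Ly-6C- cells, the last untreated value from 18 cells. The gates changed with the thresholds fitted after thinning. The CD11c-Ly-6C+ gate then held 135 treated and 123 untreated cells, in place of 52 and 82. Among the CD64+ cells of the CD11b+ Ly-6G- gate the median was 95 CD64 counts in the treated and 126 in the untreated library.

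Other values moved with the treated library. Its CD11b+ Ly-6G- cells were 13.0% Ly-6C+, 14.5% CD103+ and 37.0% CD90.2+, against 46.8%, 2.95% and 10.1% in the untreated week 7 library, and their median total was 915 against 1917 counts. CD90.2 marks T cells and innate lymphoid cells. With CD4+ and CD90.2+ cells left out, the ratio of treated to untreated CD64+ shares was 0.587 in CD11b+ Ly-6G- cells and 0.226 in CD11c+ cells, and both still met the size rule. Both differences lost the rule when every threshold was fitted within each library, with ratios of 0.860 and 0.712. The fitted CD64 threshold was then -0.99 in the treated and -1.69 in the untreated week 7 library, and 26.2% and 48.5% of CD3+CD4+ cells lay above it. With counts scaled to the library's median total and no centring, the CD11b+ Ly-6G- difference also lost the rule, with a ratio of 0.579.

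In all CD3- CD11b+ cells the comparison had the opposite sign. The CD64+ share was 31.1% (27.0 to 35.5) of 469 treated cells and 18.6% (16.1 to 21.3) of 882 untreated week 7 cells, a ratio of 1.67 that lies within the untreated weeks 5 to 7 (18.6% to 55.3%) and so did not meet the rule. Ly-6G+ cells made up 13.0% of these cells in the treated library and 73.1% in the untreated one.

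The third question was which cells carried most CD64 when phenotypes were defined without it. Averaged over the untreated libraries with at least 50 cells, the mean centred log ratio was 0.79 ± 0.34 (SD, n = 8) in CD11b+CD11c-Ly-6C+ cells, 0.73 ± 0.31 (SD, n = 8) in CD11b+CD11c+CD103- cells and 0.23 ± 0.45 (SD, n = 8) in CD11b+CD11c-Ly-6C- cells. These were the only 3 of the 11 phenotypes with a mean above the threshold. CD11b+CD11c+CD103+ cells, which include dendritic cells, followed at -0.47 ± 0.27 (SD, n = 6) and CD11b+Ly-6G+ cells at -0.65 ± 0.63 (SD, n = 8). The CD11c+ cells without CD11b had -0.85 ± 0.38 (SD, n = 8) where they lacked CD103 and -0.99 ± 0.29 (SD, n = 8) where they carried it. CD3+CD4+ cells were lowest at -1.29 ± 0.26 (SD, n = 7). The CD64+ share spanned 68.1% to 92.5% of CD11b+CD11c+CD103- cells and 7.94% to 42.8% of CD11b+CD11c+CD103+ cells over the untreated libraries with at least 50 cells, 2 ranges that do not overlap.

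None of the 10 pairs of neighbours in that order passed the exact sign-flip test over untreated libraries after adjustment (0%), and 4 had an unadjusted exact p below 0.05. The smallest p that this test can give is 0.00781 with 8 libraries and 0.0312 with 6, so a pair alone in passing could not stay below 0.05 after adjustment over 10. The order was taken from the values tested, so the pairs are those closest in level. The direction of each difference was largely set by the order and is no result of the test. CD11b+CD11c+CD103- cells were above CD11b+CD11c-Ly-6C- cells by 0.50 ± 0.40 in 7 of 8 libraries (exact p = 0.0234, adjusted 0.0781). CD11b+CD11c-Ly-6C- cells were above CD11b+CD11c+CD103+ cells by 0.85 ± 0.34 in 6 of 6 libraries (exact p = 0.0312, adjusted 0.0781). CD11b-CD11c+CD103- cells were above their CD103+ counterparts by 0.14 ± 0.14 in 8 of 8 libraries (exact p = 0.00781, adjusted 0.0781). A cell's CD103 count enters the subtracted mean, which by construction lowers the CD64 centred log ratio of CD103+ cells. The median CD64 counts, 1 to 12 on CD103- and 2 to 10 on CD103+ cells, did not show it. They were lower on the CD103- cells except at weeks 2 and 6. The first 2 phenotypes in the order differed by 0.06 ± 0.23 (exact p = 0.484), which is within their spread.

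**Figure D3:**
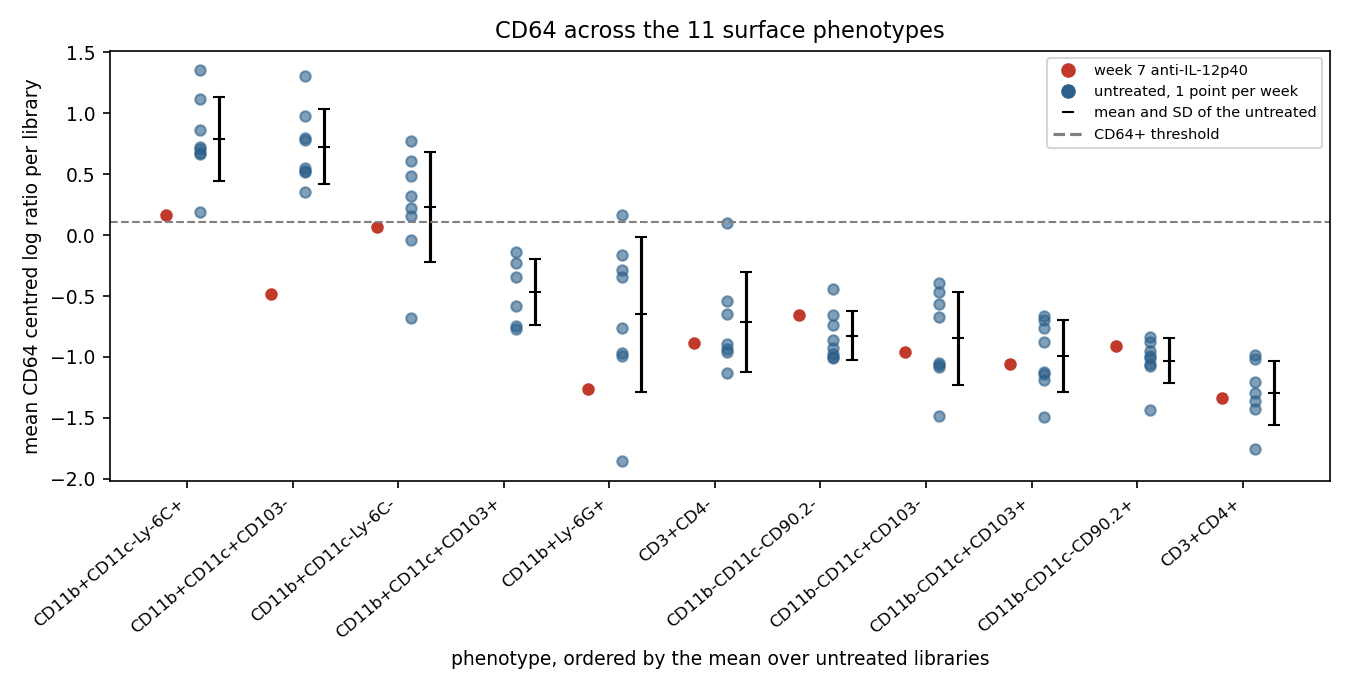
Mean CD64 centred log ratio of each library (y axis) in the 11 surface phenotypes defined without CD64 (x axis, ordered by the untreated mean), for phenotypes with at least 50 cells in a library; the bar is the mean and SD of the untreated libraries and the dashed line the CD64+ threshold of 0.11. The treated point is at -0.48 in CD11b+CD11c+CD103- cells, below every untreated library there, and has no point in CD11b+CD11c+CD103+ cells, where that library had 41 cells.

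The link between CD64 and Ly-6C was examined within CD3- CD11b+ Ly-6G- cells. The difference in mean CD64 centred log ratio, Ly-6C+ minus Ly-6C- cells, was 0.27, 0.38, 0.10, -0.08, 0.24, 0.68, -0.02 and 1.06 in weeks 0 to 7, and 0.38 in the treated library. It was positive in 6 of 8 untreated libraries, and weeks 5 and 7 were highest. The mean was 0.33 ± 0.38 (SD, n = 8; exact sign-flip p = 0.0312, adjusted 0.0398 over 14 tests of CD64 and 6 other antibodies in each of the 2 splits). Of those 14 tests, 11 passed (78.6%), 10 of them with lower values on the positive cells, and the CD64 difference was the only one that passed with a higher value. A cell's Ly-6C or CD11c count enters the mean that is subtracted from its other antibodies. By construction this lowers the other centred log ratios of the positive cells, so the 10 lower values are no measure against which to set CD64.

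The CD64+ share was higher on Ly-6C+ cells in 7 of 8 untreated libraries. At week 7 it was 92.8% (86.3 to 96.8) of 111 Ly-6C+ cells and 45.2% (36.4 to 54.3) of 126 Ly-6C- cells, and at week 5 it was 96.2% and 59.2%. At week 6, the exception, it was 58.0% on Ly-6C+ and 60.5% on Ly-6C- cells. The Ly-6C+ cells of week 0 were only 281 of 4740. Cells were also put in 4 equal groups by Ly-6C centred log ratio, which ranks Ly-6C relative to a cell's other antibodies. From the lowest to the highest group the week 0 share was 85.7%, 83.0%, 60.6% and 42.1%. The median Ly-6C counts of these groups were 179, 165, 134 and 155, so the Ly-6C count itself did not rise across them. The highest group was also below the lowest at week 6 (52.7% and 60.7%), and above it in the other untreated libraries. The median counts gave another picture. The median CD64 count was lower on Ly-6C+ than on Ly-6C- cells in 6 of 8 untreated libraries, for example 67 on Ly-6C+ and 90 on Ly-6C- cells at week 0 and 104 and 140 at week 3, and higher at week 5 (117 and 70) and week 7 (115 and 13). The mean natural log of the count plus 1, without centring, was higher on Ly-6C+ cells by 0.32 (exact sign-flip p = 0.0625, adjusted 0.0972). The Ly-6C+ cells had median totals of 1747 to 5679 counts over the untreated libraries, against 718 to 1466 on Ly-6C- cells. The CD64 difference was 0.05 (exact sign-flip p = 0.750, adjusted 0.797) once all cells were thinned to 200 counts and gated anew. The CD11b+CD11c-Ly-6C+ phenotype then held 764 cells at week 0, in place of 200.

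The Ly-6C link therefore passed or missed the threshold by the way it was measured. It missed it without each of weeks 0, 1, 2, 4, 5 and 7 (exact p = 0.0625, adjusted 0.0795), and without week 7 the mean was 0.22. It also missed it with CD4+ and CD90.2+ cells left out (0.24, exact p adjusted 0.153), and with CD103+ cells left out (0.24, exact p adjusted 0.109). Centred on the 8 antibodies other than CD64, Ly-6C and CD11c, it was 0.51 and passed (exact p adjusted 0.0219). With counts scaled to the library median it had the opposite sign, at -0.38, from the 4 libraries that allowed it (exact p = 0.125, adjusted 0.219).

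For CD11c no difference in CD64 was detected. CD11c+ minus CD11c- cells gave -0.50, -0.29, 0.14, 0.38, 0.03, -0.11, 0.15 and 0.17 in weeks 0 to 7, a mean of -0.0013 ± 0.28 (SD, n = 8; exact sign-flip p = 0.992, adjusted 0.992). The sign was negative in weeks 0, 1 and 5 and positive in the other 5. Those 3 weeks also had the most CD103+ cells in the gate, at 20.6%, 12.7% and 12.04%, against 1.68% to 4.25% in the other untreated libraries. With CD103+ cells left out, an alternative chosen after seeing the data, the difference was -0.13, -0.04, 0.17, 0.41, 0.07, 0.01, 0.20 and 0.26 in weeks 0 to 7, with a mean of 0.12 (exact p = 0.0938, adjusted 0.109). In the treated library it was -0.74 with and -0.61 without the CD103+ cells, below each untreated library with the same cells.

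Along the CD11c level the relation was not monotonic in most weeks. The cells were put in 4 equal groups by their CD11c centred log ratio. From the lowest to the highest group, the CD64+ share at week 0 was 81.9%, 82.0%, 77.6% and 29.8%. At week 1 it was 79.2%, 79.6%, 79.9% and 49.9%. The highest group had the lowest share in both weeks. At week 2 the shares were 81.2%, 78.5%, 81.4% and 81.8%, and at week 3 they were 77.7%, 75.6%, 84.4% and 84.1%. At week 4 they were 92.8%, 92.9%, 92.2% and 85.0%. At week 5 the 4 groups had 81.1%, 70.7%, 77.0% and 57.6%, and at week 6 they had 50.2%, 59.7%, 69.7% and 58.0%. The highest group was thus again the lowest at weeks 4 and 5, but not at weeks 2, 3 and 6. In the untreated library of week 7 it was 63.3%, 71.2%, 71.2% and 64.4%, and in the treated library 52.0%, 50%, 25.5% and 14.7%. In the treated library the share was already lower in the next to highest group.

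**Figure D4:**
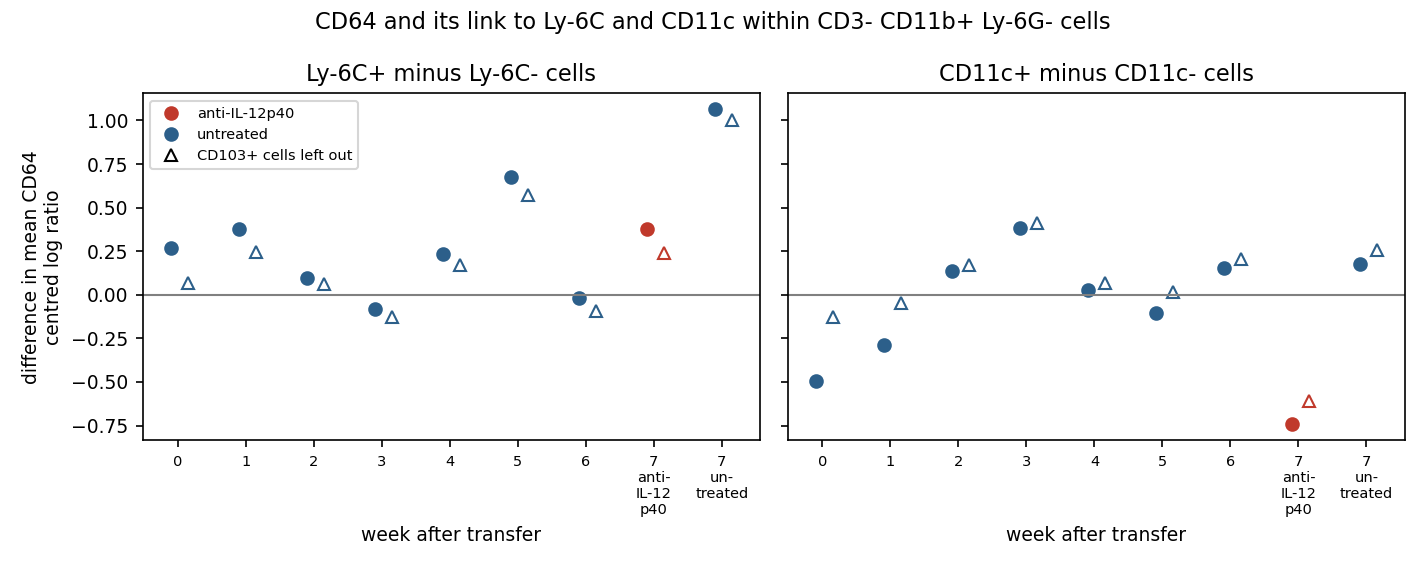
Difference in the mean CD64 centred log ratio (y axis) between Ly-6C+ and Ly-6C- cells (left) and CD11c+ and CD11c- cells (right) within CD3- CD11b+ Ly-6G- cells, by week and treatment (x axis); triangles leave out CD103+ cells. The Ly-6C difference is highest at week 7 untreated (1.06), and the CD11c difference is lowest in the treated library (-0.74).

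The last question was whether cells with much CD64, a receptor for the Fc end of antibodies, also bound more of the other antibodies. No blocking of Fc receptors is named in the labels' protocols used here. In each library the cells were put in 3 equal groups by CD64 count, and the top group was compared with the bottom one, with antibodies used in the gate left out of the test. In 13 of 15 tests (86.7%) the CD64-high cells had more of the other antibody after adjustment (exact sign-flip p = 0.00781 in each, the smallest it can give, adjusted 0.00901), and each of the 13 was higher in 8 of 8 untreated libraries. In CD3- CD11b+ Ly-6G- cells all 7 antibodies tested passed, with folds on the count plus 1 scale of 1.997 for KLRG1, 2.14 for CD103, 2.41 for Ly-6C, 2.53 for CD127, the interleukin-7 receptor, 2.54 for CD90.2, 2.65 for CD11c and 3.38 for CD4. In CD3- CD11c+ cells 6 of 8 passed, with folds of 1.65 for KLRG1, 2.18 for CD127, 2.64 for Ly-6G, 2.66 for Ly-6C, 3.40 for CD4 and 21.8 for CD11b. CD103 (1.02) and CD90.2 (1.46) missed the threshold there, with adjusted exact sign-flip p of 0.906 and 0.109. In the CD11b+ Ly-6G- gate the log2 difference for CD4 was 4.05 at week 0 and 3.09 at week 1. It was 0.779 to 1.65 in weeks 2 to 7. For CD90.2 in that gate it was 2.91 at week 0, 2.79 at week 1 and 0.528 to 1.16 in weeks 2 to 7.

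The CD64-high cells also had more antibody counts in total. The median total over the 10 antibodies other than CD64 in the CD11b+ Ly-6G- gate was 1.26 to 4.11 times higher on CD64-high than on CD64-low cells over untreated libraries and 2.66 times higher in the treated one. In the CD11c+ gate it was 2.23 to 2.85 times higher over untreated libraries and 3.23 times higher in the treated one. How much of the difference was shared depth depended on the way it was taken into account. With the 3 groups drawn within 5 strata of the summed counts of the antibodies other than CD64 and the one compared, 12 of 15 stayed higher, and KLRG1 on CD11c+ cells no longer passed (1.18-fold, adjusted exact p = 0.0992). With CD64+ against CD64- cells, 6 were higher and 1 lower. With 3 groups by CD64 centred log ratio, 4 were higher and 1 lower. After thinning to 200 counts and gating anew, 3 were higher and 2 lower. The splits by CD64+ call, by centred log ratio and after thinning take CD64 relative to a cell's other antibodies. By construction they favour lower values of the others on CD64-high cells.

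CD11b on CD11c+ cells passed every time. Its median count was 402, 290, 242, 405, 382, 361, 279 and 371 on CD64-high cells in weeks 0 to 7, against 10, 5, 7, 13, 17, 12, 13 and 5 on CD64-low cells, and it was 18 on CD64-high and 3 on CD64-low cells of the treated library. The fold was 15.1 within strata, 11.8 by centred log ratio, 11.6 for CD64+ against CD64- cells and 6.75 after thinning (adjusted exact p = 0.0107, 0.0234, 0.0195 and 0.0391), higher in 8 of 8 libraries each time.

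CD103 on CD11c+ cells went the other way in the splits that take CD64 relative to a cell's other antibodies, where lower values are favoured by construction. CD64-high cells had 0.558 times the CD103 of CD64-low cells by centred log ratio, 0.580 times for CD64+ against CD64- cells and 0.427 times after thinning (adjusted exact p = 0.0234, 0.0195 and 0.0391), lower in 8 of 8 libraries each time. It was 0.961 times within strata (adjusted exact p = 0.750). CD90.2 on CD11c+ cells was lower after thinning (0.577 times, adjusted exact p = 0.0469) and missed the threshold otherwise. In CD11b+ Ly-6G- cells CD11c (2.57-fold, adjusted exact p = 0.0469) and CD127 (1.26-fold, adjusted exact p = 0.0391) were higher after thinning, and CD4, CD90.2, CD103, KLRG1 and Ly-6C missed the threshold, at 1.62, 1.04, 1.15, 1.00 and 0.771 times.

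**Figure D5:**
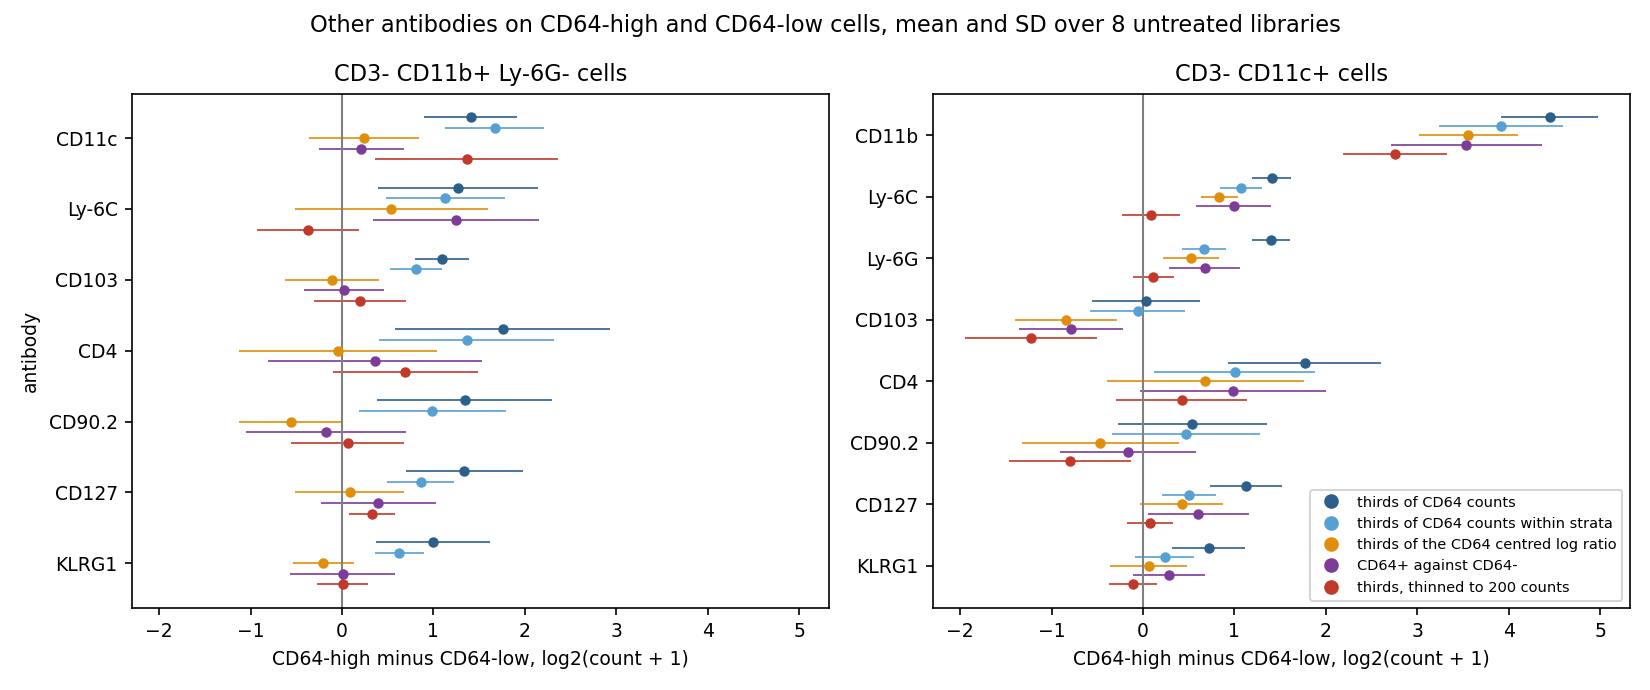
Difference in log2(count + 1) of each tested antibody (y axis) between CD64-high and CD64-low cells (x axis), mean and SD over the 8 untreated libraries, for 5 ways of splitting the cells. By CD64 counts 13 of 15 points pass as higher, while after thinning 3 pass as higher and 2 as lower; CD11b on CD11c+ cells passes in each, at 21.8-fold by counts and 6.75-fold after thinning.

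Over the cells of the CD11b+ Ly-6G- gate, counts of all 10 other antibodies were positively correlated with CD64 counts in each of the 9 libraries, as a description that shares depth within each cell. The antibodies most like CD64 were CD3, which these cells carry below its threshold (median Spearman's rho over 9 libraries 0.54, range 0.45 to 0.81), CD11b (0.53, 0.39 to 0.70) and CD127 (0.45, 0.36 to 0.69). On the centred log ratio scale the medians were -0.14 for CD3, 0.14 for CD11b and -0.19 for CD127, and only CD11b was positive in each library (0.06 to 0.38).

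T cell proteins on CD64+ cells differed widely between weeks. Of the CD64+ cells that were CD3- with CD11b or CD11c, 24.4% were CD90.2+ in the treated library. In the untreated ones 48.5%, 33.6%, 13.1%, 3.34%, 1.89%, 10.3%, 6.34% and 1.21% were CD90.2+ in weeks 0 to 7. Their median CD90.2 count was 85.5 in the treated library, 298 at week 0 and 29 to 100 in weeks 1 to 7. The share that was CD4+ was 14.1% in the treated library, 31.1% at week 0 and 3.85% to 21.5% in weeks 1 to 7. Of the CD64- cells of the same gate, 58.2% were CD90.2+ in the treated library, and 42.7%, 35.7%, 56.9%, 29.2%, 17.2%, 21.1%, 27.2% and 25.5% in the untreated libraries of weeks 0 to 7. The CD90.2+ share was thus higher on CD64- than on CD64+ cells in each library except week 0. Both calls are relative to a cell's other antibodies, which by construction favours a lower CD90.2+ share on CD64+ cells. Split by CD64 counts, CD90.2 was 2.54 times higher on CD64-high cells of the CD11b+ Ly-6G- gate. In CD11c+ cells it was 1.46 times higher and missed the threshold. The CD4+ share of the CD64- cells was 12.4% in the treated library and 5.30% to 36.4% in the untreated ones. The part of shared droplets in these values was not tested.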

How the data were processed

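Antibody tags were counted on sorted immune cells of the colon of SCID mice in the 9 libraries used here. The deposited values are raw whole-number counts per antibody and barcode. Cell Ranger 6.0.2, Seurat 4.1.1 and the build mm10 are listed in the submitters' processing notes without a stated role. The sources used here do not say how barcodes were chosen.

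A barcode needed at least 50 antibody counts, and the 1% with most counts in each library were dropped, leaving 130442 of 131917. Libraries held 11534 to 21229 barcodes, in 3 of them more than the cells loaded. Counts became centred log ratios over 11 antibodies. Positivity thresholds came from 2-component Gaussian mixtures, fitted once for the main results on 2000 cells per library. They were fitted anew for thinned counts, scaled counts, other count minimums and library thresholds, so those gates can hold other cells. Populations and 11 exclusive phenotypes were defined without CD64 and are called by their gates. Thinning drew 200 counts per cell and left out shallower cells, 4.74% in the treated and 0.366% to 13.7% in the untreated libraries. No doublet caller was run.

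Trends used library means and a two-sided exact permutation over all 40320 orderings of weeks, and the smallest p it can give is below any printed here. Paired differences within libraries used a two-sided exact sign-flip test over libraries. P-values were adjusted by Benjamini-Hochberg within each family at 0.05. Treated against untreated is 1 library each, with no test. Labels do not say that pools are replicates, so p-values measure the spread between weekly pools. Alternatives were another scaling, thinning, other thresholds, filters, splits and centring, and leaving out each library. Named besides CD64 are antibodies that passed a test and the 3 most correlated with CD64. Antibodies missing a threshold are also named, chosen after their values were seen. The members, lists and tests were chosen with earlier results of these data known. Of the steps, only the trend with week and a CD103 difference between CD64-high and CD64-low cells were tested on simulated data. In the latter, CD64 and CD103 were drawn from separate cells, so depth shared within a cell was not simulated. Python 3.11.15, numpy 2.4.6, scipy 1.17.1, scikit-learn 1.9.0 and matplotlib 3.10.9 were used.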

Additional observations from a re-analysis of the deposited data

How the results depend on the processing

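No CD64 trend passed under any alternative run. Signs turned in CD11b+ Ly-6G- cells with CD4+ and CD90.2+ cells left out (rho 0.26) and by log median count (0.34), and in CD11c+ cells with scaled counts (0.26), library thresholds (0.12), CD4+ and CD90.2+ cells left out (0.24), log median count (0.25) and without weeks 0 and 7 (0.086). Leaving out each library gave rho of -0.68 to -0.14 in all CD11b+, -0.46 to 0.25 in CD11b+ Ly-6G- and -0.32 to 0.43 in CD11c+ cells. The Ly-6C difference was 0.22 to 0.39 with each library left out, 0.31 with library thresholds, 0.32 without centring, 0.13 for the top against the bottom of 3 equal groups, 0.24 without CD4+ and CD90.2+ cells, 0.24 without CD103+ cells, 0.048 thinned, each of these missing the threshold except when week 3 or 6 was left out, and -0.38 with scaled counts, from 4 libraries. The CD11c difference was -0.056 to 0.069 with each library left out, 0.26 with scaled counts, 0.10 thinned, 0.0056 with no count minimum, 0.0014 with a minimum of 100, 0.11 centred on the other antibodies and 0.12 without CD103+ cells.

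Antibodies differing on CD64-high cells numbered 13 with each library left out, 5 by centred log ratio (4 higher), 7 for CD64+ against CD64- cells (6 higher) and 5 thinned (3 higher). Signs of antibodies that had passed turned by centred log ratio for CD103 (-0.11), CD4 (-0.043), CD90.2 (-0.56) and KLRG1 (-0.20) in CD11b+ Ly-6G- cells, for CD90.2 there by CD64+ cells (-0.18), and after thinning for Ly-6C there (-0.38) and KLRG1 on CD11c+ cells (-0.11), on the log2 scale. Neighbouring phenotypes that differed numbered 0 to 4 with each library left out, 4 of 9 pairs without week 0, and 2 with the treated library added. Treated-to-untreated share ratios moved to 1.22 in all CD11b+, 0.860 in CD11b+ Ly-6G- and 0.712 in CD11c+ cells with library thresholds (difference -0.21 in CD11b+ Ly-6G- cells), to 0.579 and 0.506 in the last 2 with scaled counts, and to 0.346 in CD11c+ cells when thinned. Apart from the library thresholds, whose background calls are given above, the causes were not tested. No fit with a replicate block could be made because the labels give no replicate numbers. Libraries with few gated cells, week 7 most of all, limit what can be detected.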
